A study of Mus musculus with 14 samples.

Results

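DNA copy level was measured in single cells at 9 genes of the MHC class I antigen presentation and interferon response pathways, out of 49943 genes in the mouse annotation. Of the 9 genes, 5 act in antigen presentation (B2m, H2-K1, H2-D1, Tap1 and Nlrc5), 3 carry the interferon signal (Ifngr1, Jak1 and Jak2), and Cd274 encodes the checkpoint ligand PD-L1. The genes were chosen by name. Each was read from the genome bin of the deposited coverage table that holds its midpoint (mm10), with the bin on either side, and each cell's value was divided by that cell's median over chromosomes 1 to 19. A level of 1.00 therefore equals the cell's own autosomal median, whatever its total coverage. The bins have a median width of 538 kb, so H2-K1 and Tap1 share 1 bin and Jak2 and Cd274 share another, and these pairs cannot be told apart. The 9 genes thus rest on 7 of 4880 bins, and each gene lies whole within its bin.

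The cells came from female C57BL/6J mice of 6 to 8 weeks that had received fluorescently labelled cells of B16F10, a melanoma line of the C57BL/6J background, with no drug. Single cells were sorted from blood and lung by tumor and host markers, and their DNA was amplified by MALBAC, a whole-genome amplification method for single cells. The 9 tumor-injected samples held 539 cells in 3 labelled classes: 43 CTC (5 samples), 450 DP (9 samples) and 46 WBC (6 samples). The 5 control samples held 22 cells of cultured B16F10, 21 WBC of naive mice, 18 CDP, 24 Duplike and 24 PltLike cells, each in 1 sample, the last 3 with the treatment label naive. CTC and WBC are the usual short forms of circulating tumor cell and white blood cell, while the labels do not spell out DP, CDP, Duplike or PltLike. The labels also do not say that each sample was a single mouse, so the p-values measure the spread between samples. RNA was not analysed here, and no gene's expression is described.

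The class labels were set against total coverage. All CTC, culture and PltLike cells had autosomal medians near 3.7, and all WBC near 1.8. DP cells fell at 5 levels, with 177 cells near 1.8, 219 near 3.7, 29 near 5.6, 9 near 7.7 and 16 near 9.6. All CDP cells lay near 5.6, and Duplike cells at 3.7 (9), 5.6 (14) and 7.7 (1). The relation of the levels to whole-genome copy number is not given in the sources used here. Read depth is unknown, and the median bin-to-bin noise of each class was 0.154 to 0.204 (log2), highest in PltLike and Duplike cells.

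MHC class I molecules present peptides from inside the cell to CD8 T cells. A heavy chain such as H2-K or H2-D (H2-K1, H2-D1) pairs with beta-2 microglobulin (B2m), and the transporter subunit Tap1 brings peptides into the endoplasmic reticulum. Nlrc5 is the transactivator of the class I genes. Interferon gamma binds a receptor with Ifngr1 as its ligand-binding chain, Jak1 and Jak2 are the kinases bound to the receptor, and the response raises class I genes and Cd274. B16F10 is known for low class I on its surface that interferon gamma raises. A deletion of B2m, Jak1 or Jak2 is a known route by which tumors lose antigen presentation or the response to interferon.

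Nlrc5 was the member whose copy level fell in both CTC and DP cells, and it acts through an enhanceosome on the promoters of the class I genes, so the promoters of B2m, H2-K1 and H2-D1 are shown as the sequences it works on. They come from RefSeq (GRCm38.p6), which held 8 of the 9 members, and run 5′ to 3′ over 300 bases around a transcript start listed there, which at H2-K1 is not the gene boundary of the coordinates used for the bins. They lie at chr2:122147437-122147736 (plus strand, B2m), chr17:34000298-34000597 (minus strand, H2-K1) and chr17:35262844-35263143 (plus strand, H2-D1). The capitals mark matches to an ISRE core (GAAA, any 2 bases, GAAA, or TTTC, any 2 bases, TTTC), a Y box (CCAAT or ATTGG) or an X2 core (TGACG or CGTCA), searched on both strands, and no 2 matches overlap here.
B2m: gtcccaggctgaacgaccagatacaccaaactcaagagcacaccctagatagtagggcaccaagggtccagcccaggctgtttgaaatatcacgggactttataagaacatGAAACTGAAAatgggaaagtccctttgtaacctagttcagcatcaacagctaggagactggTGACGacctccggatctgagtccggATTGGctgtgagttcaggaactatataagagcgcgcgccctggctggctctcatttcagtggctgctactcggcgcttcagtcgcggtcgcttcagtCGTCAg
H2-K1: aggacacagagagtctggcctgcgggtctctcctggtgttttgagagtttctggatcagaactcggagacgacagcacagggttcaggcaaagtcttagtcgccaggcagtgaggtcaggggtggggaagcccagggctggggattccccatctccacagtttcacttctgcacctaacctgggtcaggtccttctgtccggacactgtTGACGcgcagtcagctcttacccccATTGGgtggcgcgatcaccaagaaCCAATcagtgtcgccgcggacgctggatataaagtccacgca
H2-D1: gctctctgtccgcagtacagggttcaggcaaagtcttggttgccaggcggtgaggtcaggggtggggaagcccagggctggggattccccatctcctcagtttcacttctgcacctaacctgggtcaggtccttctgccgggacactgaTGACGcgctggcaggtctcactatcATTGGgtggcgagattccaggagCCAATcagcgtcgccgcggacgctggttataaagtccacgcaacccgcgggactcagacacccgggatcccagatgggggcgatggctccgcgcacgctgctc
The B2m promoter held 1 ISRE core, 1 Y box and 2 X2 cores. H2-K1 and H2-D1 each held 2 Y boxes and 1 X2 core, and no ISRE core by these letters. Of 27025 promoters of the same length, 3.49% held the ISRE core, 37.9% a Y box and 21.0% an X2 core, so the short motifs are common. H2-K1 and H2-D1 were identical at 211 of 239 aligned positions (88.3%), against 52.1% and 52.2% for each with B2m. The coverage bins do not read these letters, and a match is no evidence of binding.

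In WBC, the members' levels averaged over the 5 samples with at least 3 WBC ran from 0.879 ± 0.0243 (SD, n = 5) at H2-D1 to 1.12 ± 0.0504 at H2-K1 and Tap1. The order in WBC was H2-D1, Jak2 and Cd274 (0.912 ± 0.0433), B2m (0.931 ± 0.0227), Ifngr1 (0.948 ± 0.0531), Jak1 (0.954 ± 0.0502), Nlrc5 (1.04 ± 0.0291), and H2-K1 with Tap1. The neighbours from Jak2 to Jak1 in this order differed by less than their SDs. In CTC the lowest 4 were Ifngr1 (0.895 ± 0.0735), Nlrc5 (0.905 ± 0.0748), H2-D1 (0.910 ± 0.0360) and Jak1 (0.915 ± 0.0632), which differed by less than their SDs. Above them stood Jak2 with Cd274 (0.974 ± 0.0318), B2m (1.04 ± 0.0645), and H2-K1 with Tap1 (1.099 ± 0.0278). Levels of different bins within a class also carry each bin's own coverage bias, so the comparisons below set the same bin against itself in other cells. Split by coverage level, the DP means at Nlrc5 were 0.731 to 0.908 near 3.7 (8 samples) and 1.04 to 1.15 near 1.8 (9 samples). The share of all bins with such a gap was not counted, so these values do not show whether Nlrc5 stands apart. DP cells near 3.7 alone differed from WBC at 51.8% of all bins (limma).

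**Figure D1:**
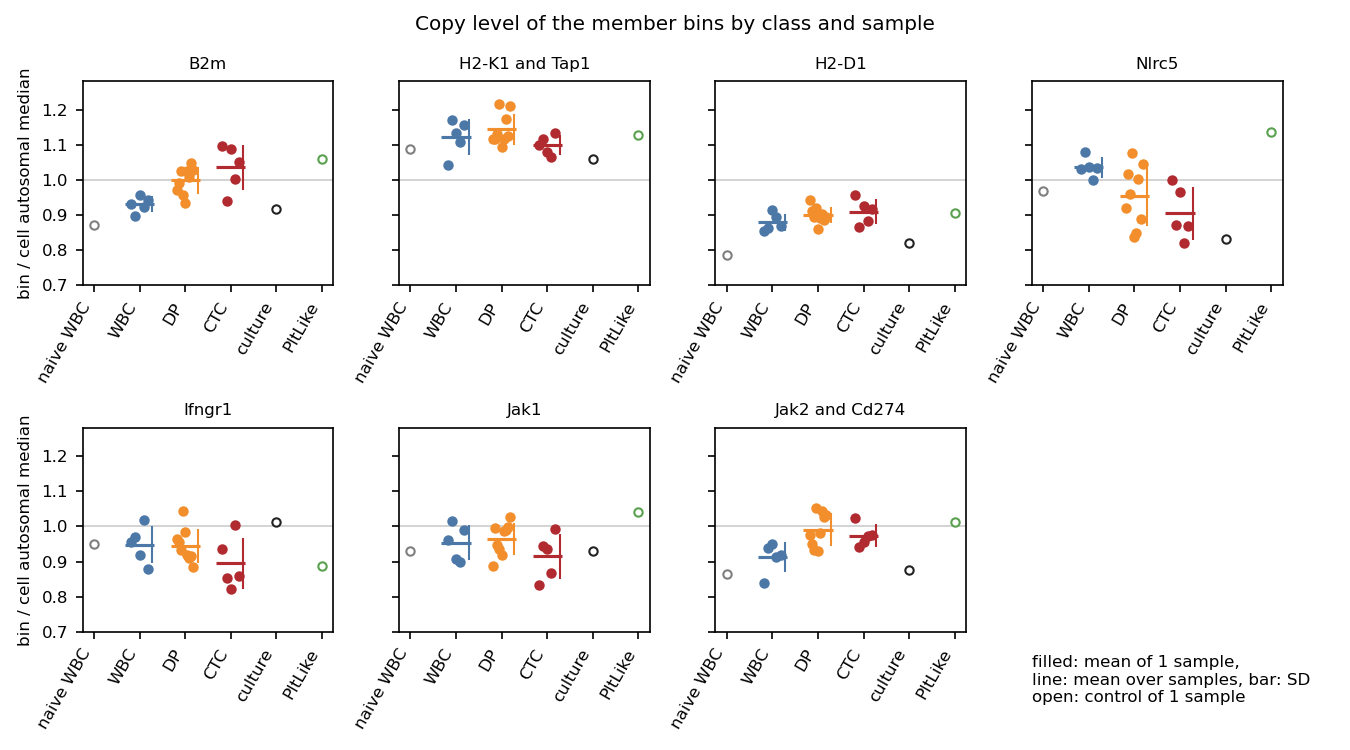
Level at the midpoint bin of each member (cell value over its autosomal median, no unit) by class. Filled points are means of 1 sample over its cells, lines and bars the mean and SD over samples, and open points controls of 1 sample. At Nlrc5 the WBC points lie from 0.999 to 1.08 and the DP points spread from 0.838 to 1.08, while H2-K1 with Tap1 lies above 1.00 in every sample.

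Nlrc5 was lower and B2m higher in CTC than in WBC of the same samples. The Nlrc5 bin (mm10, chromosome 8, 94349477 to 94876876; the gene lies at 94434335 to 94527272) had CTC levels of 1.00 (C1L), 0.872 (C1N), 0.965 (C1R), 0.819 (C2R) and 0.869 (C3R). The WBC of these samples stood at 1.03, 1.08, 1.04, 0.999 and 1.03. Every CTC mean lay under the WBC mean of its own sample, and across samples the groups met at C1L, whose CTC mean rests on 3 cells. The difference was -0.22 ± 0.044 on the log2 scale (SE, 5 of 5 samples, limma with the sample as a block, Benjamini-Hochberg adjusted p = 0.000449 over 4376 bins).

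The B2m bin (chromosome 2, 121711513 to 122239661; gene at 122147687 to 122153082) stood at 1.096, 0.940, 1.09, 1.00 and 1.05 in CTC of C1L, C1N, C1R, C2R and C3R. In WBC it stood at 0.931, 0.898, 0.958, 0.922 and 0.944. CTC were higher in each sample, and only C1N CTC lay within the WBC range. The difference was 0.14 ± 0.041 (log2, limma, adjusted p = 0.0110, 5 of 5 samples). It stood in this bin alone, since the bin before B2m differed by 0.04 (adjusted p = 0.462, limma) and the bin after by -0.05 (adjusted p = 0.398). The bin holds 14 genes, of which 9 are protein-coding, and the mean of 3 bins, the median over cells and the cells below the median noise each ended the B2m call.

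The other 5 member bins did not pass the threshold in this comparison. Ifngr1 had CTC levels of 0.935, 0.853, 0.822, 1.00 and 0.859 in C1L, C1N, C1R, C2R and C3R, against 0.955, 0.969, 0.918, 1.02 and 0.878 in WBC. Its CTC means were below the WBC means in 5 of 5 samples, with overlapping ranges (-0.09 log2, limma, adjusted p = 0.0938). The Jak2 and Cd274 bin stood at 1.03, 0.942, 0.954, 0.972 and 0.976 in CTC and 0.839, 0.938, 0.9504, 0.913 and 0.920 in WBC, with CTC above WBC in 5 of 5 samples by these means and a log2 difference of 0.08 (limma, adjusted p = 0.173, higher in 4 of 5). The differences were -0.06 at Jak1 (adjusted p = 0.284), 0.05 at H2-D1 (adjusted p = 0.403) and -0.02 at H2-K1 and Tap1 (adjusted p = 0.670), all by limma. Of all 4376 bins 50.2% were called in CTC minus WBC, 848 higher and 1347 lower, so the 2 called among 7 member bins are fewer than the background share. The median absolute difference was 0.0814 over the member bins and 0.113 over all bins.

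DP cells were lower than WBC at Nlrc5 and at no other member. The same 5 samples had DP levels at Nlrc5 of 0.919 (C1L), 1.02 (C1N), 0.959 (C1R), 0.838 (C2R) and 0.849 (C3R). Each lay below the WBC of its own sample, and the C1N DP mean lay inside the range of WBC. The difference was -0.19 ± 0.037 (log2, limma, adjusted p = 0.00849, 5 of 5 samples). In the 3 samples with both classes in both tissues, DP minus WBC at Nlrc5 was -0.13 (C1N), -0.33 (C1R) and -0.41 (C2R) in blood. In lung it was -0.02, 0.03 and -0.04, nearer to 0 in each sample, and this difference between tissues was not tested. In the samples without a WBC comparison the DP levels at Nlrc5 were 1.08 (C2N), 1.00 (P1), 0.889 (P2) and 1.05 (P4). At B2m the DP means were 0.971, 0.990, 1.03, 0.935 and 1.03, each above its own WBC mean, with a difference that did not pass (0.08, limma, adjusted p = 0.0855). The other 5 bins differed by -0.02 to 0.05, with adjusted p from 0.408 to 0.973 (limma). In DP minus WBC 39.1% of all bins were called, against 1 of 7 member bins. This comparison and CTC minus WBC share their WBC cells.

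By coverage level, DP cells near 3.7 and above had mean levels below WBC at Nlrc5 (0.823 over 219 cells near 3.7, 0.898 over 29 near 5.6, 0.910 over 9 near 7.7, 0.835 over 16 near 9.6), and those near 1.8 did not (1.09 over 177). Taken alone, the cells near 3.7 differed from WBC by -0.36 ± 0.034 (log2, limma, adjusted p = 1.87e-07, 5 of 5 samples, 51.8% of all bins called). DP cells near 1.8 alone differed from WBC by 0.06 (higher in 5 of 5 samples, adjusted p = 0.608), with 0 of 4376 bins called by limma and 380 at an unadjusted p under 0.05. Within 8 samples that held DP cells of both levels, the Nlrc5 level near 3.7 minus that near 1.8 averaged -0.264. The other members lay closer between the levels, from 0.916 near 3.7 against 0.881 near 1.8 at H2-D1 to 0.8995 against 0.954 at Ifngr1 (means over 8 and 9 samples). At B2m, DP minus WBC was alike at both levels. It was 0.080 near 3.7 (limma, adjusted p = 0.0758, higher in 4 of 5 samples) and 0.085 near 1.8 (adjusted p = 0.557, 5 of 5). These fits by level were added after the data were seen.

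**Figure D2:**
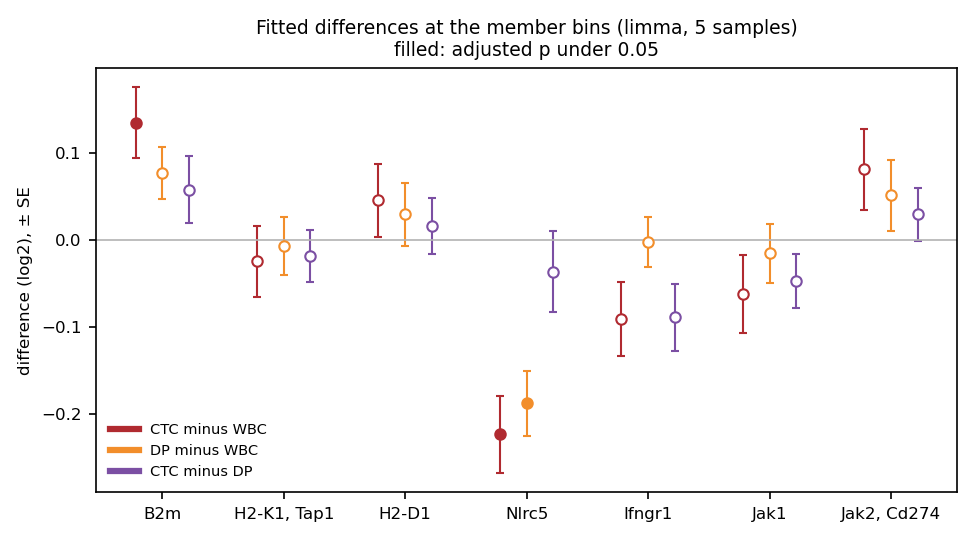
Log2 difference of each member bin with its SE from the limma fit over 5 samples, for CTC minus WBC, DP minus WBC and CTC minus DP, filled where the adjusted p is under 0.05. Nlrc5 lies at -0.22 and -0.19 in the comparisons with WBC and at -0.04 between CTC and DP, and B2m at 0.14 in CTC minus WBC.

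CTC and DP cells of the same samples differed past the threshold at 0 of 7 member bins, against 24.5% of all bins. By limma, 0 members passed at 5%, with differences of 0.06 at B2m (adjusted p = 0.323), -0.04 at Nlrc5 (0.635), -0.09 at Ifngr1 (0.134) and -0.05 at Jak1 (0.332), and within 0.03 of 0 at the other bins. Against DP cells near 3.7 only, the CTC were higher at Nlrc5 in 5 of 5 samples by 0.14 (limma, adjusted p = 0.240), with 0 bins called and 302 at an unadjusted p under 0.05. The background count itself rested on single samples: without C1N, C1R or C2R it was 0 bins in place of 1072.

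Lung and blood DP cells were compared in 5 samples. At Nlrc5 the DP cells of blood and lung stood at 0.880 and 1.104 in C1L, 0.980 and 1.08 in C1N, 0.839 and 1.04 in C1R, 0.750 and 0.975 in C2R, and 1.05 and 0.957 in P1. Lung was higher in 4 of 5 samples, and P1 went the other way. The difference was 0.21 ± 0.081 (log2, limma, adjusted p = 0.251). Jak1 was higher in lung in 5 of 5 samples by 0.11 (limma, adjusted p = 0.251), and 0 of 7 member bins were called. Of all bins 0% were called (0 of 4376 by limma, with 545 at an unadjusted p under 0.05).

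The share of DP cells near 1.8 moved with the tissue in the same direction as the Nlrc5 level. It was 12.1% in blood and 85.7% in lung of C1L, 45.5% and 100% in C1N, 8.70% and 97.1% in C1R, 0% and 76.0% in C2R, but 76.1% and 27.7% in P1. Without P1, 2018 bins were called, Nlrc5 among them at 0.29 (limma, adjusted p = 0.000633) and Jak1 at 0.13 (adjusted p = 0.0125). Among DP cells near 1.8 alone, lung minus blood at Nlrc5 was 0.01 (limma, adjusted p = 0.962, 3 samples). At Jak1 it was 0.14 there (limma, adjusted p = 0.837), higher in 3 of 3 samples.

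Relative to the rest of their own chromosome, 4 of 7 member bins differed between CTC and WBC, where 44.2% of all bins did. Jak2 and Cd274 were higher by 0.15 (limma, adjusted p = 0.00886, 5 of 5 samples) and B2m by 0.11 (adjusted p = 0.0263). Nlrc5 was lower, at -0.14 (limma, adjusted p = 0.0118), as was H2-K1 with Tap1, at -0.10 (adjusted p = 0.0296). At H2-K1 and Tap1 this stood in 1 bin alone, with -0.02 before it (limma, adjusted p = 0.807) and 0.03 after it (0.558). Without the chromosome as reference that bin differed by -0.02 (limma, adjusted p = 0.670). The bins beside Nlrc5 stood at -0.12 before it (limma, adjusted p = 0.0642) and -0.15 after it (0.00269). Ifngr1 stood at 0.05 (limma, adjusted p = 0.224), H2-D1 at -0.03 and Jak1 at 0.00. B2m kept its call under 6 of 15 alternatives and H2-K1 with Tap1 under 9, and both lost it without C1R, C2R or C3R. In cells below the median noise B2m stood at -0.00703, and without the sample block at an adjusted p of 0.0572 (limma).

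Cell-to-cell spread was compared as the log2 of the SD over the cells of a class within a sample. B2m varied more among DP cells than among WBC, by 0.63 ± 0.236 (log2 of the SD, limma, adjusted p = 0.0442, higher in 5 of 5 samples). It was the only member called, against 39.8% of all bins, of which 1737 of 1740 were more variable in DP cells. Nlrc5 stood at 0.62 (limma, adjusted p = 0.0576), Ifngr1 at 0.46 (0.111) and Jak2 with Cd274 at 0.44 (0.156). H2-K1 with Tap1 and H2-D1 each stood at -0.05. The classes also differed in cell number, with 6 WBC and 81 DP cells in C3R and only 3 WBC in C1L. The log2 of an SD over few cells tends to come out low. This was not corrected for, and its part in these differences was not tested. The DP cells of a sample pool several coverage levels, and B2m was called under 7 of 16 alternatives, with adjusted p from 0.0121 to 0.354 (limma). It was not called with DP cells near 3.7 or near 1.8 alone, in blood cells only, without the pseudocount, with the median absolute deviation, in cells below the median noise, or without C1R, C2R or C3R. In CTC minus WBC 0 member bins and 0.0229% of all bins (1 bin by limma, with 559 at an unadjusted p under 0.05) differed in spread, and the largest member values were 1.05 at Nlrc5 (adjusted p = 0.229) and 0.90 at B2m (adjusted p = 0.296).

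Cultured B16F10 had its low level at Nlrc5 too. The culture cells averaged 0.831 ± 0.185 (SD between 22 cells of 1 sample) and the naive WBC 0.969 ± 0.110 (21 cells of 1 sample), a log2 difference of -0.24. With 1 sample on each side there is no test, and bins past an absolute difference of 0.2 were counted: Nlrc5 was the only one of 7 member bins, against 39.7% of all bins. B2m stood at 0.06, Ifngr1 at 0.09, H2-D1 at 0.05, H2-K1 with Tap1 at -0.03, Jak2 with Cd274 at -0.02 and Jak1 at -0.00. The B2m level was 0.917 ± 0.0872 in culture and 0.871 ± 0.0717 in naive WBC. PltLike cells differed from naive WBC by 0.25 at B2m, 0.19 at Jak2 and Cd274, 0.19 at H2-D1, 0.16 at Jak1, 0.16 at Nlrc5, 0.05 at H2-K1 and Tap1, and -0.10 at Ifngr1. Duplike cells differed by 0.25 at B2m, 0.21 at H2-D1, 0.18 at Jak2 and Cd274, 0.13 at Nlrc5, 0.09 at Jak1, 0.03 at H2-K1 and Tap1, and -0.17 at Ifngr1. The naive WBC lay below the WBC of injected mice at every member bin. At H2-D1 they averaged 0.786, against 0.888 in WBC of injected mice, 0.905 in PltLike and 0.918 in Duplike cells. At B2m the 2 WBC groups averaged 0.871 and 0.932, and at Jak2 and Cd274 0.865 and 0.925. No share of all bins was counted for PltLike or Duplike cells.

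The Nlrc5 level split the cells near 3.7 into a majority below 1.0 and a minority above, a limit chosen with the values in view. On the mean of 3 bins, culture cells below 1.0 averaged 0.749 ± 0.0506 (SD, 18 cells), and such cells averaged 0.763 in CTC, 0.758 in DP cells near 3.7, 0.769 in PltLike and 0.762 in Duplike cells. Cells above 1.0 were 4 of 22 in culture (18.2%, 95% exact binomial interval 5.19 to 40.3%), 8 of 43 CTC (18.6%, 8.39 to 33.4%), 11 of 24 PltLike (45.8%, 25.6 to 67.2%), 3 of 9 Duplike and 10 of 219 DP cells (4.57%, 2.21 to 8.24%). These intervals cover counting error only.

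The cells above 1.0 averaged 1.17 in culture, 1.33 in CTC, 1.35 in PltLike and 1.21 in DP cells, and the highest reached 1.84 in CTC and 1.73 in PltLike. Between 0.9 and 1.1 lay 1 cell in culture, 1 CTC, 0 PltLike, 1 Duplike and 10 DP cells. In DP cells this equals the number above 1.0, so the DP count depends on where the limit is set. The CTC above 1.0 were 1 of 3 in C1L, 1 of 6 in C1N, 4 of 15 in C1R, 2 of 14 in C2R and 0 of 5 in C3R, and the DP cells 3 of 26, 0 of 6, 1 of 15, 0 of 34 and 0 of 67. The share was higher in CTC in 4 samples and equal at 0 in C3R, with a mean difference of 14.5 ± 8.64 percentage points (SD, n = 5), given without a test because the limit followed the values. The CTC above 1.0 had a median noise of 0.165 and those below 0.154; the part of noise in the split was not tested.

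**Figure D3:**
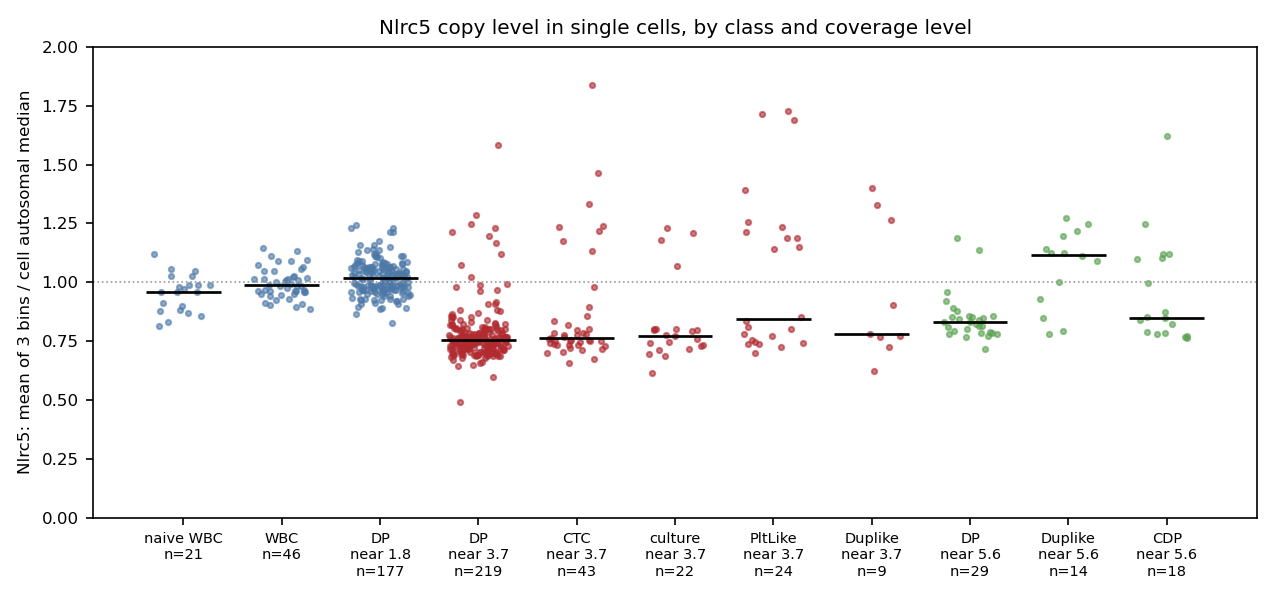
Level at Nlrc5 (mean of 3 bins over the autosomal median, no unit) of each cell by class and coverage level, with 1 point per cell and a line at the median. Cells near 3.7 gather near 0.75, a few lie above 1.0 with the highest at 1.84 in CTC, and WBC and DP cells near 1.8 lie around 1.00.

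The low level at Nlrc5 belonged to a long stretch of chromosome 8. In CTC minus WBC, 74 bins in a row were lower, from 82758276 to 122445471 (39.7 Mb, mean -0.32), and in DP minus WBC 34 bins (83297634 to 101462280, 18.2 Mb). Over chromosome 8 from 82758276 to 128679366 (45.9 Mb, 86 bins) the 275 cells below 1.0 at Nlrc5 averaged 0.771, against 1.01 in 67 WBC of injected and naive mice. This stretch was drawn as the run around Nlrc5 where the running median over 9 bins of the same 275 cells was under 0.9. Their low level inside it therefore follows from how it was drawn. On the centromeric side of the stretch the same cells averaged 1.00 and WBC 0.994. The low level thus covers many genes beside Nlrc5, and the bins do not single it out.

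The 33 cells above 1.0 at Nlrc5 averaged 1.03 over the whole stretch, but not evenly. Their median profile was above that of WBC by more than 0.1 (running median of 5 bins) over 20 bins from 91723378 to 102571798 (10.8 Mb), at a median of 1.25 against 0.997. This segment starts 2.71 Mb before Nlrc5 and ends 8.04 Mb after it. The cells were grouped by their level at Nlrc5 and the bins picked for the excess. A rise at the gene therefore follows from the grouping, and the profile adds its extent. Beyond it, to the end of the stretch, their median was 0.935 against 1.05 in WBC, and before it 0.957 against 0.976.

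**Figure D4:**
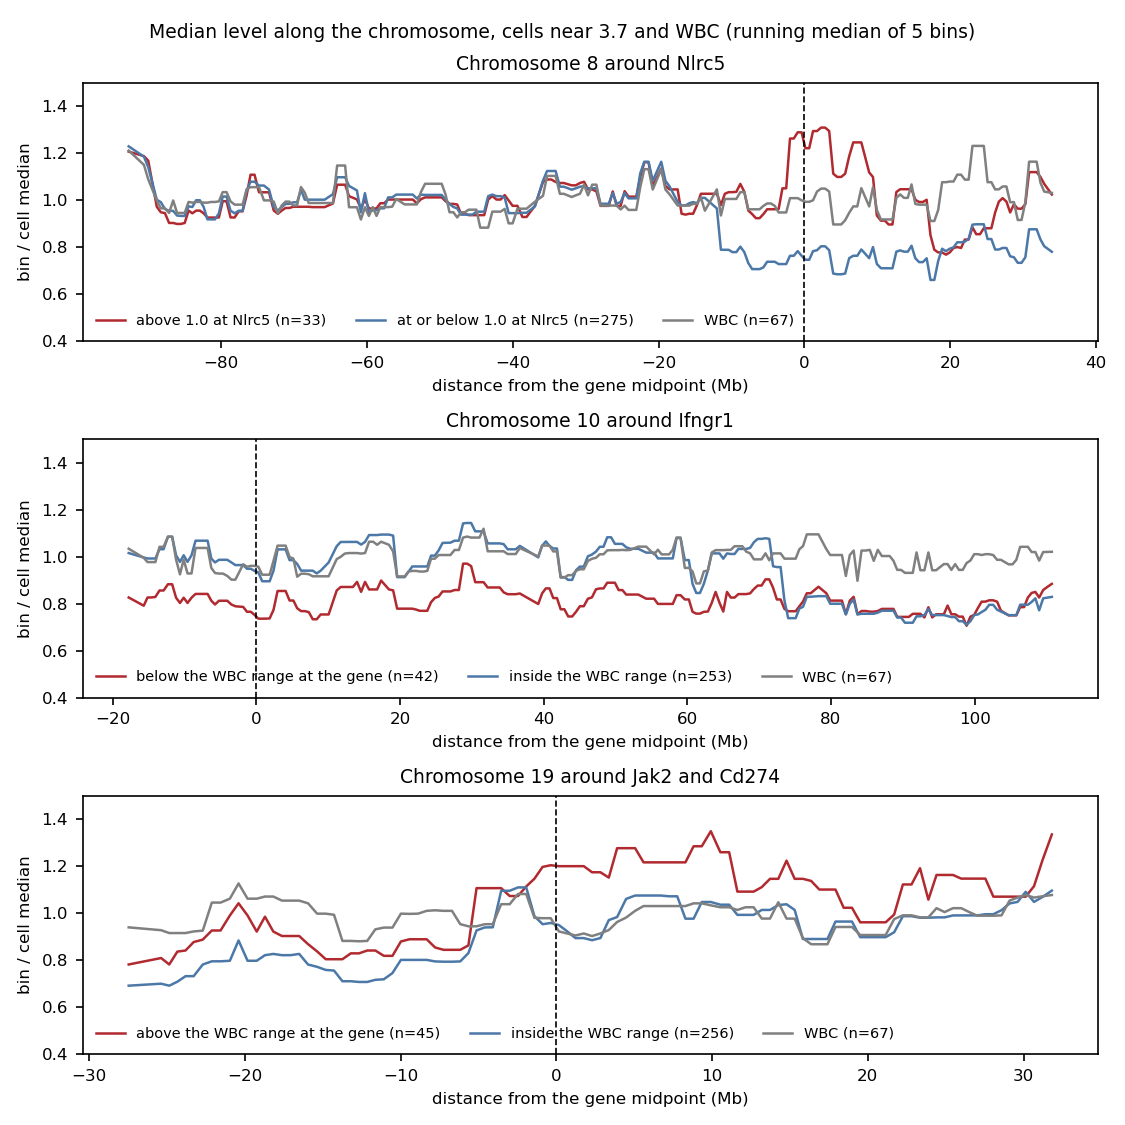
Median level over cells (bin over autosomal median, no unit, running median of 5 bins) by distance in Mb from Nlrc5, Ifngr1 and Jak2, for WBC and for cells near 3.7 grouped by their level at the gene. Cells above 1.0 at Nlrc5 rise over 10.8 Mb around the gene, while the cells below 1.0 stay low over 45.9 Mb and WBC stay near 1.00.

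Ifngr1 was low in a subset of cells concentrated in a few samples. On the mean of 3 bins the 67 WBC ranged from 0.826 to 1.14, and 42 of 308 CTC, culture, PltLike and DP cells near 3.7 lay below this range. They were 13 of 43 CTC (0 of 3 in C1L, 4 of 6 in C1N, 8 of 15 in C1R, 0 of 14 in C2R, 1 of 5 in C3R) and 27 of 219 DP cells, with 2 of 24 PltLike and 0 of 22 culture cells. DP cells below it were 1 of 26 in C1L, 3 of 6 in C1N, 8 of 15 in C1R, 0 of 34 in C2R, 4 of 67 in C3R, 3 of 36 in P1, 5 of 25 in P2 and 3 of 10 in P4. C1N and C1R had high shares in both classes and C2R had none in either. The test of CTC minus WBC at Ifngr1 given above pools samples of both kinds.

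In these 42 cells at least 50% of the difference at the gene held along chromosome 10 from its start to 92323901 (92.3 Mb), where their median was 0.826, against 1.02 in the 253 cells inside the WBC range and 1.00 in WBC. Beyond it, over the remaining 38.4 Mb, both kinds of cells were below WBC, at 0.782 and 0.765 against 1.00. The 42 cells were grouped by their level at Ifngr1, so their low level at the gene follows from the grouping. The Ifngr1 gene lies at 19591949 to 19610229, in a bin from 19083609 to 19612192 with 8 genes.

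**Figure D5:**
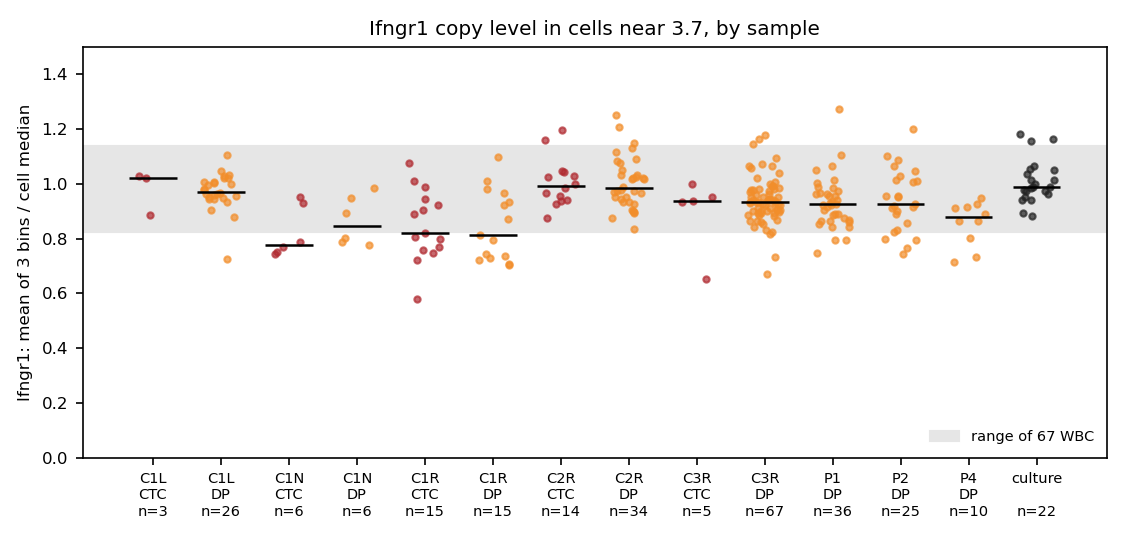
Level at Ifngr1 (mean of 3 bins over the autosomal median, no unit) of each CTC and DP cell near 3.7 by sample, and of culture cells, with a line at the median and the range of 67 WBC (0.826 to 1.14) shaded. Cells of C1N and C1R often lie below the range, and no cell of C2R or of culture does.

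The Jak2 and Cd274 bin (chromosome 19, 29178112 to 29706425; Jak2 at 29251803 to 29313095, Cd274 at 29362107 to 29388095) varied mostly upward. Above the WBC range of 0.783 to 1.09 lay 33 of 219 DP cells near 3.7 (15.1%), 7 of 43 CTC (16.3%), 2 of 22 culture and 3 of 24 PltLike cells. In these 45 cells at least 50% of the difference at the gene held on chromosome 19 from 27608659 to 49062185 (21.5 Mb). They were grouped by their level at this bin, so the difference at the gene follows from the grouping. In cells inside the range, chromosome 19 from its start to 23370639 (23.4 Mb) stood at 0.772 against 0.998 in WBC, and this low segment ended 5.88 Mb before Jak2. DP cells near 3.7 spanned 0.509 to 2.28 at this bin (mean of 3 bins), and culture cells 0.423 to 1.42. Of 450 DP cells 3 lay under 0.6 and 8 over 1.4 (mean of 3 bins). The counts were 1 and 1 of 22 culture cells, 1 and 2 of 24 PltLike cells, and 1 and 0 of 18 CDP cells. Of 43 CTC, 24 Duplike cells and 67 WBC none did. Outside the WBC range on either side were 16.9% of DP cells near 3.7, 16.3% of CTC, 13.6% of culture and 20.8% of PltLike cells. The medians over all bins were 11.0%, 13.95%, 9.09% and 20.8%.

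H2-K1, Tap1, H2-D1 and Jak1 lay within the range of WBC in every CTC and culture cell. Outside it were 2 of 219 DP cells near 3.7 (0.913%) at H2-K1 and Tap1, 7 (3.20%) at H2-D1 and 12 (5.48%) at Jak1, below the median of all bins for such cells (11.0%). The WBC range was 0.842 to 1.45 at H2-K1 and Tap1, 0.744 to 1.15 at H2-D1 and 0.750 to 1.16 at Jak1. It was narrower at B2m (0.763 to 1.08), and a wide range leaves fewer cells outside, so low counts also depend on its width. At B2m 6 of 43 CTC (13.95%, which is also the median of all bins) and 20 of 219 DP cells (9.13%) lay outside. At Nlrc5 86.0% of CTC, 85.4% of DP cells near 3.7, 95.5% of culture cells and 87.5% of PltLike cells lay outside, where the medians over all bins were 13.95%, 11.0%, 9.09% and 20.8%. H2-K1 and Tap1 (chromosome 17, bin 33918327 to 34444468) and H2-D1 (bin 34978717 to 35513741) lie in gene-rich bins of 44 and 61 genes. Jak1 lies in a bin of 13 genes on chromosome 4 (101121097 to 101643666).

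Among cells near 5.6, those below 1.0 at Nlrc5 stood nearer to 1.00 than DP cells near 3.7 below 1.0, which averaged 0.758. Taken whole, only DP cells near 5.6 had a low mean at the Nlrc5 bin (0.898), while Duplike cells near 5.6 averaged 1.11. Of 29 DP cells near 5.6, 27 lay below 1.0 and averaged 0.826, as did 12 of 18 CDP cells at 0.824. Of 14 Duplike cells near 5.6, 10 lay above 1.0. CDP cells averaged 1.00 ± 0.254 at the Nlrc5 bin, 0.883 ± 0.0417 at B2m, 1.01 ± 0.0810 at H2-K1 and Tap1, and 0.816 ± 0.116 at Jak2 and Cd274 (SD between 18 cells of 1 sample).

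A wider list of 44 pathway genes showed how many neighbours in function lie in changed bins. Of 43 genes in tested bins, in CTC minus WBC 9 were higher, 14 lower and 20 did not pass. These genes fill 33 bins without a member, of which 20 (60.6%) were called, where 50.2% of all bins were. Peptide generation and loading had 2 higher, 4 lower and 7 not called, regulators of MHC genes 4, 2 and 3, interferon ligands and receptors 0, 1 and 4, signal transduction 3, 3 and 2, and checkpoint and induced genes 0, 4 and 4.

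By smallest adjusted p, the higher bins held Tapbpl, a tapasin relative (0.56, limma, adjusted p = 1.61e-08), Socs3, an inhibitor of cytokine signalling (0.39, adjusted p = 6.77e-07), and Stat3 (0.32, adjusted p = 5.20e-06). The lower bins held Ifng, the interferon gamma gene (-0.50, limma, adjusted p = 5.60e-08), Isg15, an interferon-induced ubiquitin-like protein (-0.46, adjusted p = 2.01e-07), Rela, an NF-kappa-B subunit (-0.36, adjusted p = 3.63e-06), and the chemokines Cxcl9 and Cxcl10 in 1 bin (-0.35, adjusted p = 3.92e-06). Each had its direction in 5 of 5 samples, as did each named in the next comparison. In DP minus WBC 6 genes were higher, 13 lower and 24 not called, and 16 of 33 bins (48.5%) were called, where 39.1% of all bins were. The named ones were Socs3 (0.24, limma, adjusted p = 0.00678), Canx, a chaperone of class I folding (0.18, adjusted p = 0.00699) and Tapbpl (0.29, adjusted p = 0.00751). Lower were Psme1, Psme2 and Irf9 in 1 bin (-0.20, limma, adjusted p = 0.00678), Ifng (-0.33, adjusted p = 0.00678), Isg15 (-0.27, adjusted p = 0.00678), and Cxcl9 with Cxcl10 (-0.21, adjusted p = 0.00893).

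Across the 24 class-by-sample means, the pathway gene on another chromosome with the level most like B2m was Tyk2 (Pearson r = 0.814). For Nlrc5 it was the bin of Psme1, Psme2 and Irf9 (0.681), for Ifngr1 Erap1 (0.476), for Jak1 Calr (0.556) and for H2-D1 Pdcd1lg2 (0.794), which lies in the bin of Jak2 and Cd274. The bin of H2-K1 and Tap1, which also holds Tap2, Tapbp, Psmb8 and Psmb9, and the bin of Jak2, Cd274 and Pdcd1lg2 were each most like the other (0.761), while over 308 cells near 3.7 the same pair had r = -0.0409. In those 308 cells H2-D1 and the bin of Jak2 and Cd274 had r = 0.233. Each named gene is the highest of 38 to 42 candidates, and the 24 points pool tumor and host classes. Points of 1 sample share its libraries, so these are descriptions. Over 308 cells near 3.7, the correlation of a member bin with the mean of its neighbours was 0.830 at Nlrc5, 0.794 at Jak2 and Cd274, 0.720 at Ifngr1, 0.595 at B2m and 0.415 to 0.419 at the others, with a median of 0.561 over all bins. In 244 cells near 1.8 it was 0.227 at Nlrc5, where the median was 0.380. Between different members r ran from -0.197 to 0.376, the highest at B2m with Jak2 and Cd274.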

How the data were processed

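Coverage was measured in single-cell DNA libraries of 648 cells from 14 samples. The deposited values are a normalised, scaled signal (coverage) per bin and cell that the authors computed; the table's name points to Ginkgo, whose settings are not given in the sources used here. The submitters' processing notes name BWA, HISAT2, SAMtools, Picard, featureCounts and Trim Galore for the whole series, and mm10 as build. Read counts are not part of these values, so depth is unknown and no interval from reads was computed. Class, tissue and sample came from the deposited cell table.

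Of 4880 bins, 4376 (4120 autosomal, 256 on X) were tested; the others stood at the value 10 in 1% of cells or more, or on Y. Deposited values plus 0.1 were put on the log2 scale minus the cell's autosomal median, and averaged per class and sample with at least 3 cells. Differences were fitted with limma 3.58.1 (R 4.3.3), sample as block, Benjamini-Hochberg at 5%. The sample is the batch label, so the pairing comes from the design; the correlation of same-sample deviations ran from -0.0249 to 0.403 in CTC minus WBC. Spread used the log2 of the SD over cells. The fits were also run on simulated data with independent noise in each bin. That run does not show how they behave where neighbouring bins move together, as they do here. Other software was numpy 2.4.6 and pandas 2.3.3 (Python 3.11.15), scipy 1.17.1 and matplotlib 3.10.9.

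All 9 members are named; of the wider list, the 4 gene bins per direction with the smallest adjusted p, genes of 1 bin together; and the most similar pathway gene on another chromosome. In each comparison 1 higher gene that this rule selects is not reported here. Members and lists were chosen with earlier results of these data known. Alternatives were the pseudocount, bins, cell filters, tissue, samples and block. RNA was not analysed here.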

Additional observations from a re-analysis of the deposited data

Results flagged for a closer look

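At H2-K1 and Tap1, DP cells and WBC compared in opposite directions in blood and in lung. In the 3 samples with both classes in both tissues, DP minus WBC was -0.09 (log2, mean) in blood and 0.04 in lung, a difference of -0.129. It was -0.21 in blood and 0.04 in lung of C1N, -0.03 and 0.06 in C1R, and -0.03 and 0.01 in C2R. Every sample went the same way in each tissue, and the difference itself was not tested. The pattern was looked for at each of 7 member bins. DP cells alone differed between lung and blood by -0.00409 (C1N), -0.00385 (C1R) and 0.0593 (C2R). In C1N and C1R the change of direction therefore lies in the WBC means. These rest on 4 blood and 6 lung WBC in C1N, 9 and 3 in C1R, and 4 and 9 in C2R. Of 21 groups of samples examined for a sample far from the others, none had one, where chance gives about 1 in 20.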

How the results depend on the processing

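Of 749 alternatives at single members, 703 kept their side of the threshold, 15 became called, 29 lost the call and 2 lost it with a change of sign. Of the 703, 641 also kept their direction, and 62 changed sign at a member not called either way, such as Nlrc5 in CTC minus DP (-0.16 to 0.14 over the alternatives). The 2 that lost a call with a change of sign were Nlrc5 in DP minus WBC with only DP cells near 1.8 (0.0594, chosen after seeing the data) and B2m relative to its chromosome in cells below the median noise (-0.00703). Nlrc5 was called in CTC minus WBC under each of 15 alternatives, with differences from -0.35 to -0.20, and B2m under 12.

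Of 7 member bins, the calls in CTC minus WBC went from 2 to 1 with the mean of 3 bins, the median over cells and the cells below the median noise. In DP minus WBC they went from 1 to 0 with at least 1 cell per class or only DP cells near 1.8. Leaving out 1 sample gave 2 to 2, 1 to 1 and, in CTC minus DP, 0 to 0 calls, and 0 to 2 in lung minus blood, where leaving out P1 gave 2. Relative to the chromosome, 4 calls became 2 with the mean of 3 bins, the cells below the median noise or blood cells only, and 1 to 3 on leaving out 1 sample. Spread in DP minus WBC, 1 call, became 3 with a pseudocount of 0.5, 0 without one, 4 with the mean of 3 bins, 0 with the median absolute deviation, 2 without cells near 5.6 or above, 0 with only DP cells near 3.7 or only near 1.8, and 0 to 3 on leaving out 1 sample. Spread in CTC minus WBC, 0 calls, became 1 with the mean of 3 bins and 1 in cells below the median noise, and 0 to 0 on leaving out 1 sample. The Nlrc5 difference between DP levels moved from -0.264 to -0.236 with the mean of 3 bins. The cause of these changes was not tested.

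Without the sample as a replicate block the calls were 2, 1 and 0 in CTC minus WBC, DP minus WBC and CTC minus DP, and 3 in place of 4 relative to the chromosome, where B2m had an adjusted p of 0.0572 (limma). Over all bins, CTC minus DP had 1072 calls, 581 without the block, 63 in blood cells only, and 0 without C1N, C1R or C2R, with the median over cells or with DP cells near 3.7. DP minus WBC had 1709 calls over all bins, 976 without C2R and 993 without C1L. Bins of about 538 kb limit what can be said of single genes, and classes of 1 sample have no replicate.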
